A study of Mus musculus with 12 samples.

Results

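The genes described here are 38 markers of macrophages, monocytes and granulocytes, taken as a named list and read in the mouse anterior prostate. Of the 38, 37 were measured among 19935 genes tested, and Lyn is not analysed here. Total RNA was hybridised to Affymetrix GeneChip Mouse Gene 1.0 ST arrays, on which a probe set called a transcript cluster reads each gene. The 4 APT121 arrays carry tissue labelled as PIN lesion (prostatic intraepithelial neoplasia), and the 8 wild type arrays carry normal tissue. All animals were males of 12 weeks of the F3 generation, with C57BL/6J and DBA/2 ancestry, fed the semi-purified AIN93G diet from 3 weeks of age. The T121 transgene of APT121 mice is a fragment of a viral large T antigen that inactivates the pRb family, and the probasin promoter confines it to prostate epithelium, so the myeloid cells themselves are not its target. Each array holds RNA pooled from 2 mice (8 APT121 and 16 wild type animals). The p-values therefore rest on the variation among these pools.

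Macrophages derive from blood monocytes and from cells seeded in tissues before birth, and granulocytes such as neutrophils arrive from blood. The transcription factor PU.1, encoded by Spi1, and the receptor for colony-stimulating factor 1 establish and maintain the macrophage lineage. These cells carry receptors for antibody, microbial products, modified lipids and dying cells, and many of those receptors signal through the small adaptor proteins encoded by Fcer1g and Tyrobp. Growing epithelial lesions commonly contain macrophages among their stroma. The whole lobe was assayed, so a higher value can reflect more cells of a type or more RNA per cell, which cannot be told apart.

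Macrophage genes moved unevenly in APT121 prostate. Of the 37 measured members, 17 rose, 6 fell and 14 did not pass the threshold, an adjusted p of 0.05 by limma with Benjamini-Hochberg adjustment over all genes. In either direction 52.8% of all genes were called. The members called higher make up 45.9% of the list, where 22.8% of all genes were called higher, and those called lower 16.2%, where 30.0% of all genes were called lower. The median difference of the members was 0.15 on the log2 scale and that of all genes was -0.09. With each array centred on its median, 11 members were called higher and 8 lower. Over all genes that setting called 4103 higher and 7824 lower, against 4540 and 5987 without the centring. Mpeg1, Laptm5 and Fcer1g rose at least 2-fold, as 5.73% of all genes did, and Mertk fell at least 2-fold, as 1.95% did. All 4 APT121 values lay above all 8 wild type values for 9 members (24.3%, against 17.7% of all genes) and below them for 3 (8.11%, against 16.9%). Below, levels are log2 intensities as mean ± SD over 4 APT121 or 8 wild type arrays, and each log2 difference (± SE) is the APT121 value minus the wild type value.

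The calls fall into a firm and a marginal set. Fcer1g, Tyrobp, Tlr4, Cd68, Cybb, Mpeg1, Ptprc, Laptm5 and Aif1 rose under every alternative setting that tested them, and these 9 also passed a 1.5-fold minimum. The falls of Mertk, Csf2ra, Marco and Axl held in the same way, except that only Mertk passed the 1.5-fold minimum. The other 8 rises and 2 falls were lost under at least 1 alternative.

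**Figure D1:**
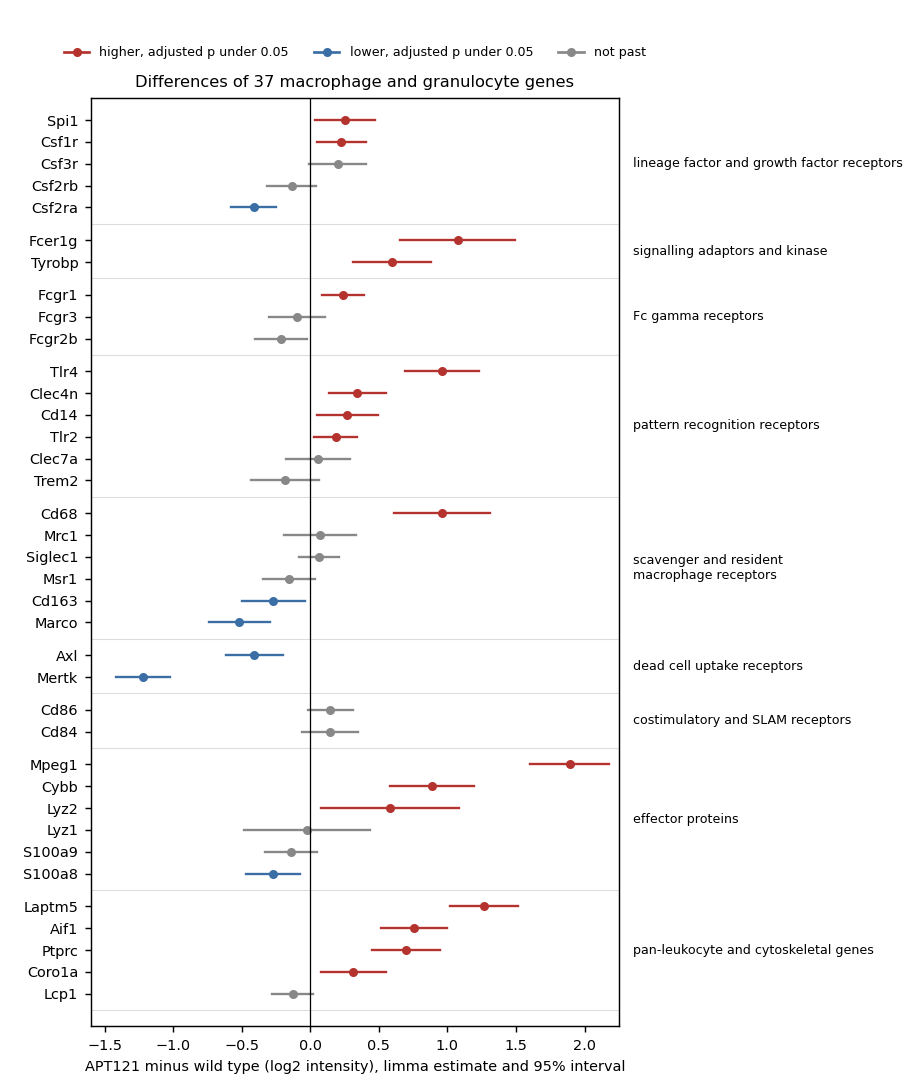
Difference of each of the 37 measured members (APT121 minus wild type, log2 intensity) with its 95% interval from limma, in 9 role groups. Mpeg1 lies farthest to the right at 1.89 and Mertk farthest to the left at -1.22, and most members lie between -0.5 and 1.

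The label was checked against low intensities on the arrays. Olfactory receptor genes, which are not thought to be transcribed in prostate, had a median level of 2.85 and a 95th percentile of 4.06 over their 1027 genes. Both group means of Csf3r, Clec4n, Msr1, Cd86, Cd84, S100a8 and S100a9 (7 of 37 members) lay under that 95th percentile, so for these genes a signal above background was not shown. For Marco the APT121 mean and for Aif1 the wild type mean lay under it, so the sizes of their differences are not exact. The same holds for 1 group of Tfec, Cd28, Clec10a, Prtn3, Cd3g, Nkg7, Gzmb and Adipoq on the other lists. Of the 1027 olfactory receptor genes themselves, 164 were called lower and 0 higher, so their calls ran in 1 direction. Members in this range were called both ways, Clec4n higher and S100a8 lower. Clusters differ in probe brightness, so this is a description and not a detection call. All 3 members most tied to granulocytes, Csf3r, S100a8 and S100a9, are among the 7, and the list as measured is mainly one of macrophage genes.

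Of the lineage factor and 4 growth factor receptors, 2 rose, 1 fell and 2 did not pass, with no change of 1.5-fold. Spi1 read 4.78, 4.39, 4.79 and 4.56 on APT121 arrays 1 to 4, and 4.00 to 4.56 on wild type arrays with a median of 4.40. The groups overlap, and APT121 array 2 lies at the wild type median. The difference of 0.25 ± 0.10 passed narrowly (adjusted p = 0.0470) and did not pass when any of wild type arrays 1, 2, 3, 4 or 6 or APT121 arrays 1, 3 or 4 was left out (adjusted p = 0.0575 to 0.152), nor by an unadjusted exact permutation test (p = 0.0525, two-sided). Csf1r, the receptor for colony-stimulating factor 1 and interleukin 34, read 6.81, 6.83, 7.05 and 6.55 in APT121 against 6.44 to 6.72 (median 6.57) in wild type. APT121 array 3 is the highest and array 4 lies among the wild type values. Its difference of 0.23 ± 0.08 (adjusted p = 0.0339) was lost without any of wild type arrays 3, 4 or 7 or APT121 arrays 1, 2 or 3 (adjusted p = 0.0502 to 0.151) and was 0.06 after a second quantile normalisation (adjusted p = 0.609).

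Csf2ra, the ligand-binding chain of the receptor for granulocyte-macrophage colony-stimulating factor, fell. It read 6.18, 6.12, 6.45 and 6.13 in APT121 and 6.39 to 6.72 (median 6.66) in wild type. Only APT121 array 3 and wild type array 6, the lowest of its group, overlap. The fall was -0.41 ± 0.08 (adjusted p = 3.40e-04). Csf2rb, the shared signalling chain of that receptor, differed by -0.14 (adjusted p = 0.183; 95% interval -0.32 to 0.04), and probes of its near-identical copy Csf2rb2 may contribute. Csf3r, the receptor for granulocyte colony-stimulating factor, read 3.67, 3.44, 3.67 and 3.67 in APT121 against 3.02 to 3.66 in wild type. Its difference of 0.20 did not pass (adjusted p = 0.0944), and it passed without wild type array 7 (adjusted p = 0.0453).

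Among 8 ligands of these and related receptors, 1 rose, 3 fell and 4 did not pass. Csf1 itself was at 5.59 ± 0.09 and 5.60 ± 0.16, with an adjusted p of 0.989 by limma. Il34 fell by 0.36, Flt3l, a dendritic cell growth factor, by 0.27 and Csf3 by 0.26. Kitl, the ligand of the Kit receptor, rose 2.33-fold (1.22 ± 0.14, adjusted p = 3.00e-06). Of 12 transcription factors of myeloid cells, 1 was higher, 8 lower and 3 not past, where 22.8% of all genes were called higher and 30.0% lower. Tfec, a relative of Mitf expressed in macrophages, fell from 5.59 ± 0.56 to 3.40 ± 0.16, a level in the range of olfactory receptor genes, Cebpd fell by 0.62 and Irf8, a factor for monocyte and dendritic cell development, by 0.59 ± 0.07. Runx1, a factor of blood cell formation that epithelia also express, rose by 1.67 ± 0.17. Neither Cebpa (0.20) nor Irf5 (0.05) passed. Which cells of the lobe these changes came from was not tested.

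Promoters of members are shown because PU.1 binds a purine-rich core, written here as GAGGAA, in many macrophage genes. RefSeq promoter windows (build GRCm38.p6, 250 bases before to 50 after the gene's start) were used for 27 members. Member windows on a chromosome set aside were not counted, while the count over all genes kept that chromosome. Of the 27 members, 16 (59.3%) hold the core on either strand in at least 1 window. Of all 27025 genes with windows 31.3% do. Among members called higher, 6 of 11 hold it. The 3 members with a core that rose most are shown, Laptm5 (chr4:130913066-130913365, plus strand), Cd68 (chr11:69666121-69666420, minus strand) and Cybb (chrX:9469275-9469574, minus strand). Capitals mark the core or, as TTCCTC, its reverse complement, and no overlap of motifs occurs.
Laptm5: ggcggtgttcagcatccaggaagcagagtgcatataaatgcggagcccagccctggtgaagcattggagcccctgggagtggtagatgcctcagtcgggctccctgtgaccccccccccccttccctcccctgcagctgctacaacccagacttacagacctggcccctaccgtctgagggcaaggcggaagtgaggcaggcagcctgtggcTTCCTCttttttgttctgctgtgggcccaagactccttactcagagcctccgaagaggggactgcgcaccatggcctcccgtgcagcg
Cd68: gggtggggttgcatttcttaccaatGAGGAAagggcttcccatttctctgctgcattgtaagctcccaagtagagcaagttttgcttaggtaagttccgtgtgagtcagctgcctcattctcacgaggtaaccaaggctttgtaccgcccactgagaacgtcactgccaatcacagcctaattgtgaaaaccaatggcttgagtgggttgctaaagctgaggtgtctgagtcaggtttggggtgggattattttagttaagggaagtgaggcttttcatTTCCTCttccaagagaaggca
Cybb: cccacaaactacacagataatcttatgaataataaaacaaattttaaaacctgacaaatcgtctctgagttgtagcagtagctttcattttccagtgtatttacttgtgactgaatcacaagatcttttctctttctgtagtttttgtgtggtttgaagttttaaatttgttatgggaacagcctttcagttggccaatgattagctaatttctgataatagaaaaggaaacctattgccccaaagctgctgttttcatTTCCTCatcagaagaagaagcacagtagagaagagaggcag
Counted in bases from the gene's start, the core begins at -38 in Laptm5, at -225 and 29 in Cd68, and at 9 in Cybb. A match of letters is not a measured binding site.

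Both measured adaptors rose. Fcer1g, the common gamma chain that carries the signal of activating Fc receptors, read 6.90, 7.09, 7.39 and 6.46 in APT121 and 5.01 to 6.32 (median 5.92) in wild type. All APT121 arrays lie above all wild type arrays, with 0.14 between the nearest values, and wild type array 3 is far below its group. The rise was 2.10-fold (1.07 ± 0.20, adjusted p = 2.78e-04). Tyrobp, the adaptor also called DAP12 that serves Trem2 among other receptors, read 5.76, 6.00, 6.24 and 5.53 in APT121 and 4.97 to 5.57 in wild type. Only APT121 array 4 overlaps the wild type range, and the rise was 1.51-fold (0.59 ± 0.13, adjusted p = 0.00158).

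The signalling genes downstream of such adaptors did not move together. Of 14 measured signalling genes, 3 rose, 3 fell and 8 did not pass. Plcg2, the phospholipase of the pathway, fell by 0.83 ± 0.08 and the scaffold gene Lcp2 by 0.47, while Pik3ap1, an adaptor for phosphoinositide 3-kinase, rose by 0.52 ± 0.14. The kinase gene Syk differed by 0.05 (adjusted p = 0.695).

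Of 3 receptors for the Fc part of IgG, 1 rose and 2 did not pass. Fcgr1, the high-affinity receptor, read 4.58, 4.75, 4.90 and 4.62 in APT121 and 4.33 to 4.57 in wild type. The groups part by 0.01. The rise of 0.24 ± 0.07 (adjusted p = 0.0112) was lost without APT121 array 3 (0.17, adjusted p = 0.0536). Fcgr2b, the inhibitory receptor, read 4.53, 4.73, 4.95 and 4.57 in APT121 against 4.70 to 5.10 in wild type. Its difference of -0.21 did not pass (adjusted p = 0.0553), and it passed without wild type array 1 (adjusted p = 0.0297) or without APT121 array 3 (-0.30, adjusted p = 0.0110). Fcgr3, an activating low-affinity receptor, differed by -0.10 (adjusted p = 0.403; 95% interval -0.30 to 0.11). Related Fc gamma receptor genes, Fcgr2b included, may share its probes' signal. Fcgr4 was itself low, at 3.52 ± 0.11 in APT121 and 3.37 ± 0.05 in wild type, in the range of olfactory receptor genes.

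Of 6 pattern recognition receptors, 4 rose and 2 did not pass. Tlr4, the receptor for bacterial lipopolysaccharide, rose most among them. It read 7.87, 7.86, 7.40 and 8.13 in APT121 and 6.50 to 7.08 (median 6.89) in wild type. The groups part by 0.31, and array 3, the highest APT121 array for most members, is here the lowest. The rise was 1.94-fold (0.96 ± 0.13, adjusted p = 1.05e-05). Cd14, its co-receptor, read 4.85, 4.79, 4.48 and 4.68 against 4.06 to 4.64, with array 3 again the lowest APT121 array. Cd14 differed by 0.27 ± 0.10 (adjusted p = 0.0401), a call that leaving out any of wild type arrays 4, 5, 6 or 7 or APT121 arrays 1, 2 or 4 ended (adjusted p = 0.0534 to 0.130). Other genes around these receptors split. Of 10 receptor partners and ligands 2 rose, 3 fell and 5 did not pass. Lbp, which carries lipopolysaccharide to CD14, rose by 0.45 ± 0.09, and Ly96, the MD-2 subunit bound to TLR4, differed by -0.14 (adjusted p = 0.435).

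Tlr2, the receptor for bacterial lipopeptides, read 5.67, 5.71, 5.85 and 5.69 in APT121 and 5.30 to 5.65 in wild type. Its groups part by 0.02. The difference of 0.19 ± 0.07 (adjusted p = 0.0453) was lost without any of wild type arrays 4, 5, 6 or 8 or any APT121 array (adjusted p = 0.0511 to 0.143). Clec4n, which encodes the fungal receptor dectin-2, was higher by 0.34 ± 0.10 (adjusted p = 0.00770). It read 3.21, 3.09, 3.33 and 2.69 against 2.68 to 2.94, within the range of olfactory receptor genes, and the call was lost when wild type arrays 5 to 8 served as the only controls (adjusted p = 0.0542). Clec7a, which encodes dectin-1, read 4.08, 4.08, 4.51 and 4.12 against 3.93 to 4.43. Its difference of 0.05 (adjusted p = 0.690) turned to -0.05 without APT121 array 3 (adjusted p = 0.708). Trem2, a lipid receptor of tissue macrophages, read 5.28, 5.49, 5.55 and 5.16 against 5.17 to 5.83 and differed by -0.18 (adjusted p = 0.188; 95% interval -0.43 to 0.06).

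Of 6 scavenger receptors and markers of resident macrophages, 1 rose, 2 fell and 3 did not pass. Cd68, a lysosomal glycoprotein used to stain macrophages, rose. It read 6.79, 6.77, 7.06 and 5.92 in APT121 and 5.44 to 5.95 (median 5.61) in wild type. APT121 array 4 lies within the wild type range and the other APT121 arrays well above it. The rise was 1.94-fold (0.96 ± 0.16, adjusted p = 1.41e-04). Marco, a scavenger receptor for bacteria and particles, fell. It read 3.95, 3.74, 4.13 and 3.97 against 4.20 to 4.74 (median 4.47). The groups part by 0.07, and the measured fall was -0.52 ± 0.11 (adjusted p = 6.76e-04), with the APT121 mean of 3.95 in the range of olfactory receptor genes. Its size depends on the wild type arrays used. Wild type arrays 1 to 4 read 4.20 to 4.39 and arrays 5 to 8 read 4.55 to 4.74. Under the alternatives the difference ran from -0.69 to -0.35.

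Cd163, the receptor for haptoglobin-haemoglobin complexes on resident macrophages, read 4.35, 4.54, 4.36 and 3.98 in APT121 and 4.36 to 4.79 in wild type. Its difference of -0.27 ± 0.11 (adjusted p = 0.0444) was lost without any of wild type arrays 1, 3, 4, 5 or 8 or APT121 arrays 1, 3 or 4 (adjusted p = 0.0534 to 0.202), and was -0.16 without APT121 array 4. Hp, the haptoglobin gene, was lower by 0.99 ± 0.26 (adjusted p = 0.00525). It read 3.90 to 4.53 in APT121 and 4.39 to 6.09 in wild type, so the groups overlap. Wild type arrays 1 to 4 read 4.39 to 5.01 for Hp and arrays 5 to 8 read 5.37 to 6.09. The other 3 scavenger receptors and resident macrophage markers did not pass. Mrc1, the mannose receptor, was at 5.88 ± 0.11 and 5.81 ± 0.26 (adjusted p = 0.640 by limma; 95% interval -0.19 to 0.33). Siglec1, the sialic acid receptor sialoadhesin, differed by 0.06 (adjusted p = 0.444) and Msr1, the class A scavenger receptor, by -0.16 (adjusted p = 0.152).

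The TAM receptors Mertk and Axl, kinases by which phagocytes recognise dying cells, both fell. Mertk read 7.89, 7.79, 7.90 and 7.77 in APT121 and 8.72 to 9.27 (median 9.05) in wild type. The groups part by 0.82, and the APT121 arrays lie close together (SD 0.06). Mertk was 2.33-fold lower (-1.22 ± 0.09, adjusted p = 1.66e-08). Axl read 6.87, 6.95, 7.12 and 6.53 against 7.17 to 7.56 (median 7.23), with 0.05 between the groups and wild type array 3 as the highest. It was 1.33-fold lower (-0.41 ± 0.10, adjusted p = 0.00234). Gas6, a ligand of both receptors, was 2.30-fold lower (8.67 to 8.90 against 9.88 to 10.18, adjusted p = 5.12e-10). Pros1, another ligand within the TAM receptor family, differed by 0.17 (adjusted p = 0.136). Epithelial, endothelial and stromal cells also express TAM receptors and Gas6. Markers of smooth muscle and fibroblasts (10 of 10 lower) and of endothelium (6 of 7 lower) fell as well, and their part in these falls was not tested.

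Neither the costimulatory nor the SLAM receptor passed. Cd86, the ligand of CD28 on T cells, was at 3.76 ± 0.13 and 3.62 ± 0.12 (adjusted p = 0.127 by limma), and Cd28 itself fell by 0.49 ± 0.08. Cd84, a self-binding receptor of the SLAM family, was at 3.59 ± 0.17 and 3.45 ± 0.17 (adjusted p = 0.217). Both passed after a second quantile normalisation (0.25, adjusted p = 0.0142, for Cd86 and 0.25, adjusted p = 0.0479, for Cd84).

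Of 6 effector proteins, 3 rose, 1 fell and 2 did not pass. Mpeg1, which encodes the pore-forming protein perforin-2 of macrophages, rose most of all members. It read 6.85, 6.79, 7.16 and 6.42 in APT121 and 4.67 to 5.26 (median 4.86) in wild type. The lowest APT121 array lies 1.16 above the highest wild type array. The rise was 3.71-fold (1.89 ± 0.14, adjusted p = 8.37e-09). Cybb, the catalytic subunit of the phagocyte NADPH oxidase, read 7.29, 6.80, 7.36 and 7.08 against 5.68 to 6.64 (median 6.28). The groups part by 0.16, and the rise was 1.85-fold (0.89 ± 0.14, adjusted p = 8.29e-05). Cyba, the membrane partner of Cybb and of related oxidases, rose 1.93-fold (0.95 ± 0.08), while the other 3 measured partners, Ncf1 (-0.07), Ncf4 (-0.07) and Rac2 (0.19), did not pass.

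The lysozymes varied widely among APT121 pools. Lyz2, the lysozyme of macrophages, read 8.15, 8.41, 8.89 and 7.02 in APT121 against 7.26 to 7.90 (median 7.54) in wild type. APT121 arrays 1 to 3 lie above every wild type array and array 4 below every one. The difference of 0.58 ± 0.24 (adjusted p = 0.0490) did not pass when any of wild type arrays 1 to 7 or APT121 arrays 1, 2 or 3 was left out (0.32 to 0.60, adjusted p = 0.0542 to 0.228), nor by an unadjusted exact permutation test (p = 0.0646, two-sided). Without APT121 array 4 the difference of Lyz2 was 0.95 (adjusted p = 8.06e-05). Lyz1, the lysozyme of Paneth cells, read 5.20, 5.63, 6.34 and 5.23 against 5.14 to 6.23 and differed by -0.03 ± 0.22 (adjusted p = 0.925). Its sign turned without wild type arrays 7 or 8 or APT121 arrays 1 or 4 (0.04 to 0.11) and against wild type arrays 1 to 4 alone (0.25). The 2 genes are close copies, and probes of each may bind transcripts of the other.

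S100a8 and S100a9, whose proteins pair as calprotectin in neutrophils and monocytes, were not higher. S100a8 read 2.87, 2.66, 2.78 and 2.93 in APT121 and 2.82 to 3.30 in wild type, in the range of olfactory receptor genes. Its difference of -0.27 ± 0.09 (adjusted p = 0.0202) was lost without APT121 array 2 (-0.22, adjusted p = 0.0836). Olfactory receptor genes were called lower and not higher, as given above, while Clec4n in the same range was called higher. S100a9 read 3.80, 3.59, 3.83 and 3.88 against 3.73 to 4.21 and differed by -0.14 (adjusted p = 0.199). Fold changes at such low intensities are compressed.

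Of 5 genes shared by many leukocytes, 4 rose and Lcp1 did not pass. Ptprc, the CD45 phosphatase, read 5.89, 5.59, 6.24 and 5.73 in APT121 and 4.78 to 5.34 (median 5.21) in wild type. The groups part by 0.24, and wild type array 8 is low in its group. The rise was 1.62-fold (0.70 ± 0.12, adjusted p = 1.02e-04). Laptm5, a lysosomal protein of blood cells, read 8.13, 7.93, 8.36 and 7.62 against 6.48 to 6.94, with 0.68 between the groups. It rose 2.41-fold (1.27 ± 0.12, adjusted p = 1.42e-07). Aif1, the calcium-binding protein Iba1 of macrophages, rose (measured difference 0.76 ± 0.11, adjusted p = 3.75e-05), with APT121 values of 4.24 to 4.91 above wild type values of 3.61 to 4.13, whose mean lies in the range of olfactory receptor genes. Coro1a, an actin-binding protein of leukocytes, read 5.76, 5.83, 6.14 and 5.62 against 5.17 to 5.76. Its rise of 0.31 ± 0.11 (adjusted p = 0.0284) was lost without APT121 array 3 (0.21, adjusted p = 0.128), and leaving out APT121 array 2 gave an adjusted p of 0.0587. Lcp1, the actin bundler L-plastin, was at 9.24 ± 0.14 and 9.37 ± 0.08 (adjusted p = 0.130 by limma). It was lower after median centring (-0.18, adjusted p = 0.0484) and after a second quantile normalisation (-0.21, adjusted p = 0.0173). Tumour and other epithelial cells can express Lcp1 too.

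**Figure D2:**
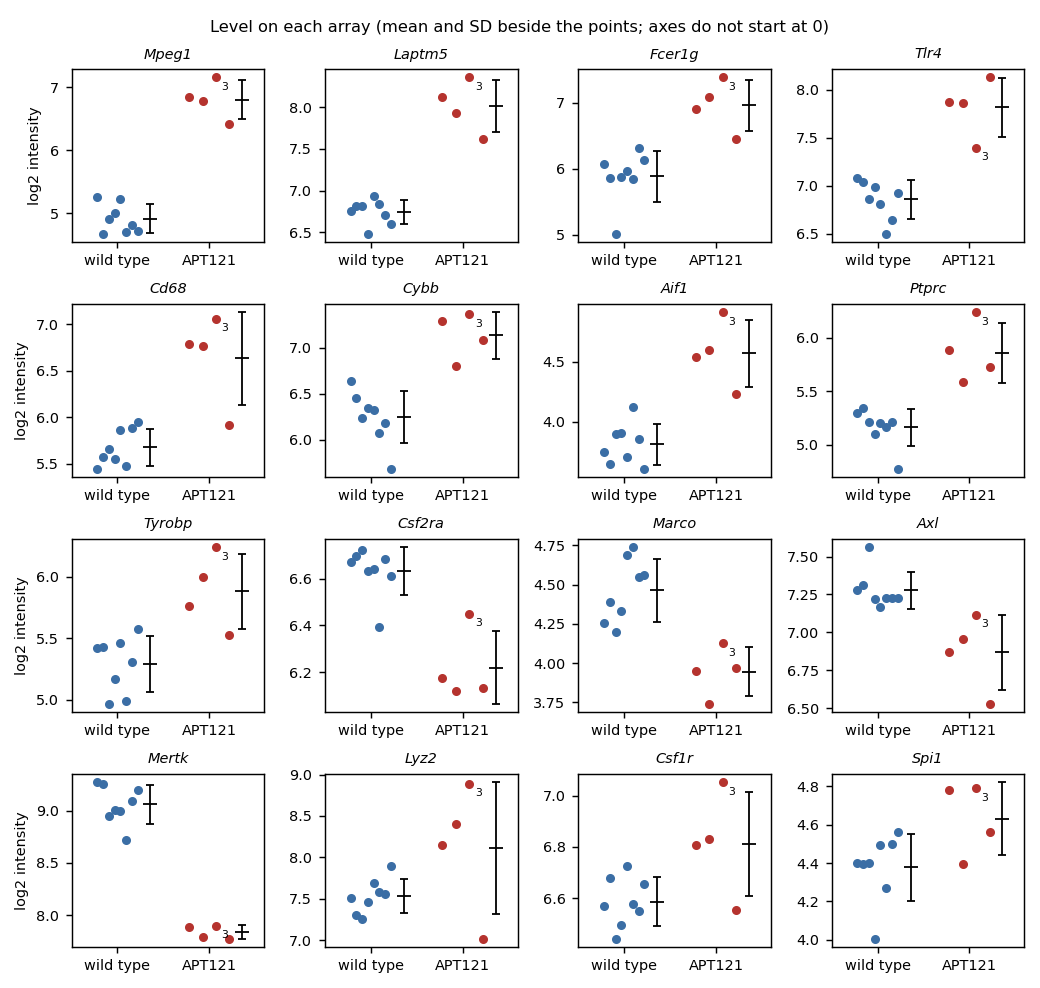
Log2 intensity of 16 members on each of 8 wild type and 4 APT121 arrays, with the mean and SD of each group beside its points and APT121 array 3 marked. Array 3 is the highest APT121 array in every panel except Tlr4, and the APT121 values of Mertk lie closest together.

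APT121 array 3 stood apart. It was the highest of the 4 APT121 arrays for 28 of 37 members (75.7%, against 26.3% of all genes), and array 4 was the lowest for 17 (45.9%, against 25.3%). The mean level over all members was 5.66 on array 3 and 5.29 on array 4, against 5.19 to 5.29 over the wild type arrays. Without array 3, 11 members were called higher and 6 lower, where 4489 of all genes were called higher and 5575 lower. The members that lost a rise were Spi1, Csf1r, Fcgr1, Tlr2, Lyz2 and Coro1a. The fall of Cd163 was lost as well and Fcgr2b passed as lower. Smooth muscle and fibroblast markers had their highest APT121 mean on array 3 (9.01) and their lowest on array 4 (8.47), against 9.25 to 9.56 in wild type. Epithelial markers did likewise (9.75 on array 3 and 9.40 on array 4, against 9.69 to 9.85 in wild type). Endothelial markers were highest on APT121 array 1 (5.43) and neutrophil genes on array 4 (4.13). Marker means of T and NK cells were also highest on array 3 (4.28). The part of these differences in tissue make-up was not tested.

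**Figure D3:**
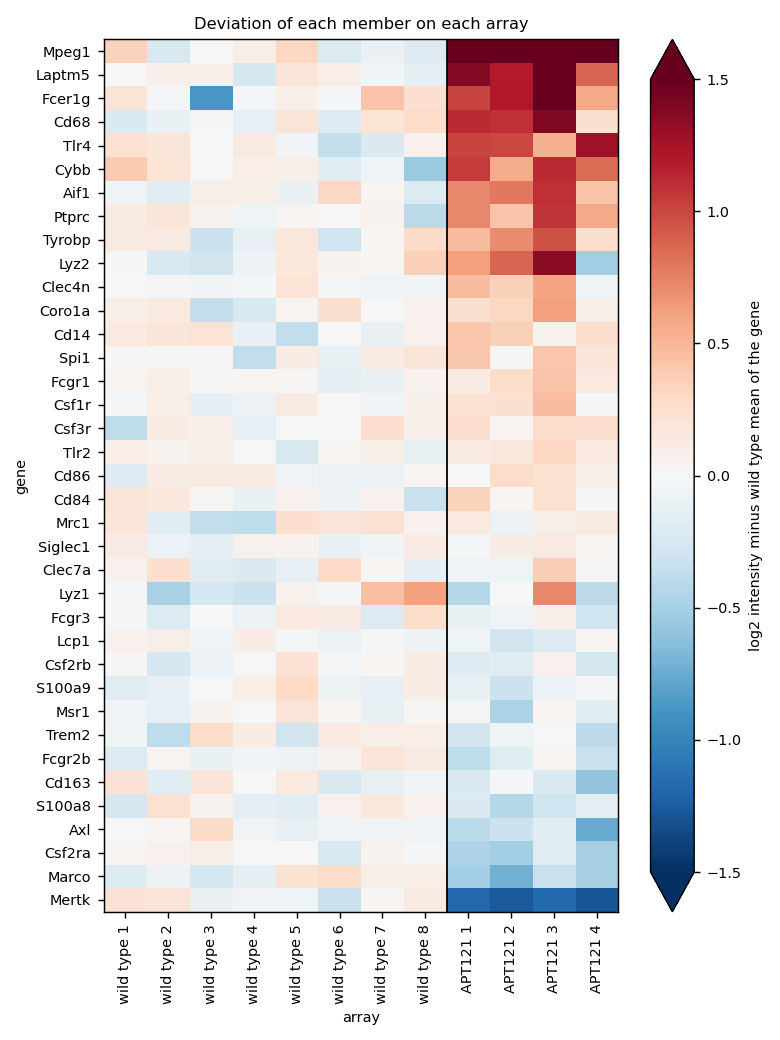
Log2 intensity of each member on each array minus the wild type mean of that gene, ordered by the difference between the groups (colours saturate at 1.5). The column of APT121 array 3 is redder than those of the other APT121 arrays for 28 of 37 members, and array 4 is the palest or bluest for 17.

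Of 42 macrophage and monocyte genes outside the list, 21 were higher, 4 lower and 17 not past, with a median difference of 0.19. Beside this list and the others, above and below, stand the shares over all genes, 22.8% higher and 30.0% lower. No list was tested against the others. Ctss, the lysosomal protease cathepsin S, rose 3.77-fold (1.91 ± 0.10, adjusted p = 1.86e-10), C3ar1, the receptor for the complement fragment C3a, 2.49-fold (1.32 ± 0.14) and Lgals3, the lectin galectin-3 of macrophages and epithelia, 2.22-fold (1.15 ± 0.12). All 3 chains of complement C1q, which tissue macrophages make, rose (C1qa by 0.95, C1qb by 0.97 and C1qc by 0.78). Adgre1, the F4/80 antigen of mouse macrophages, rose by 0.88 ± 0.18 and the chemokine receptor gene Cx3cr1 by 0.93 ± 0.13. For Adgre1, Cx3cr1 and all 3 C1q chains, array 4 was the lowest APT121 array. On it C1qc (6.44) lay within the wild type range (highest 6.49) and C1qa (6.71) was level with the wild type maximum of 6.71. Adgre1 (5.64), C1qb and Cx3cr1 lay above their wild type ranges there. Itgam (0.12, adjusted p = 0.272) was among the 17 not past. Clec10a (-0.49), Slamf9 (-0.49), Lyve1 (-0.43) and Folr2 (-0.28) fell. Lyve1 and Folr2 mark resident macrophages beside vessels, but Lyve1 is not confined to macrophages. Endothelial markers fell for 6 of 7 genes, and their part in the fall of Lyve1 was not tested.

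Of 18 neutrophil genes measured, 2 rose, 1 fell and 15 did not pass, with a median difference of -0.09, and 11 had both group means under the 95th percentile of olfactory receptor genes, where a missed threshold says little. The defining markers Ly6g (3.22 ± 0.20 and 3.04 ± 0.12), Elane (3.43 ± 0.17 and 3.48 ± 0.09) and Cxcr2 (2.72 ± 0.17 and 2.85 ± 0.14) were among those 11. Pglyrp1, a peptidoglycan-binding protein of neutrophil granules and epithelia, rose 9.75-fold (3.29 ± 0.20, adjusted p = 8.38e-10) and Lcn2, the iron-scavenging lipocalin that epithelia also secrete, 3.40-fold (1.77 ± 0.26, adjusted p = 2.71e-05). These 2 put the list mean on APT121 arrays (4.08 to 4.13) above wild type (3.80 to 4.00) although the median is below 0. Prtn3, the granule protease proteinase 3, was lower by 0.28 ± 0.10.

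The counts for other blood cell types follow, to be read against the same shares over all genes. Eosinophil and mast cell genes rose for 1 of 15 and fell for 6. The mast cell proteases Mcpt4 (-0.72 ± 0.14) and Cpa3 (-0.66 ± 0.16) fell, while Kit, the stem cell factor receptor of mast cells and other cells, rose by 1.70 ± 0.09. Among 8 dendritic cell genes, 1 rose (Clec9a, 0.23) and 1 fell (Batf3, -0.43). T and NK cell markers rose for 4 of 14 and fell for 0, led by Cd3g (1.59 ± 0.13), Nkg7 (1.00 ± 0.13) and Gzmb (0.50 ± 0.08). The other 10 did not pass, and the median difference of the T and NK list was 0.04, although its mean was higher on every APT121 array. B and plasma cell markers rose for 0 of 8 and fell for 2, Ms4a1 (-0.29) and Blk (-0.28). List means in APT121 and wild type were 3.57 and 3.66 for B and plasma cells. They were 4.18 and 3.95 for T and NK cells and 4.15 and 4.24 for dendritic cells. These lie under or near the olfactory receptor 95th percentile of 4.06, a range where falls and missed thresholds say little. Of the red blood cell markers, Alas2 was measured and differed by -0.32 (adjusted p = 0.0784).

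Markers of the other tissue compartments changed with the genotype. Epithelial markers rose for 4 of 9 and fell for 4, with Krt19 up by 1.31 and probasin (Pbsn) and Krt5 lower by -3.27 and -1.29. Smooth muscle and fibroblast markers fell for 10 of 10 (Des -0.97, Dcn -0.93, Cnn1 -0.88), endothelial markers for 6 of 7 (Emcn -1.06, Kdr -0.80, Pecam1 -0.53) and adipose markers for 5 of 5 (Fabp4 -1.41, Adipoq -0.88, Plin1 -0.75). Seminal vesicle markers rose for 2 of 6, Svs2 and Svs5, and their list mean was 5.66, 6.98, 6.75 and 7.00 on APT121 arrays 1 to 4. All 4 lie above the wild type arrays other than array 6, which ran from 3.61 to 4.48, and below wild type array 6 at 9.05. The part of such tissue in the members' differences was not tested. Adipose markers were highest on wild type arrays 5 and 7 (0.37 and 0.66 above the wild type mean). Without wild type arrays 5, 6 and 7, an alternative added after seeing the data, 11 members were called higher and 5 lower. Of all genes, 4230 were then called higher and 5084 lower.

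**Figure D4:**
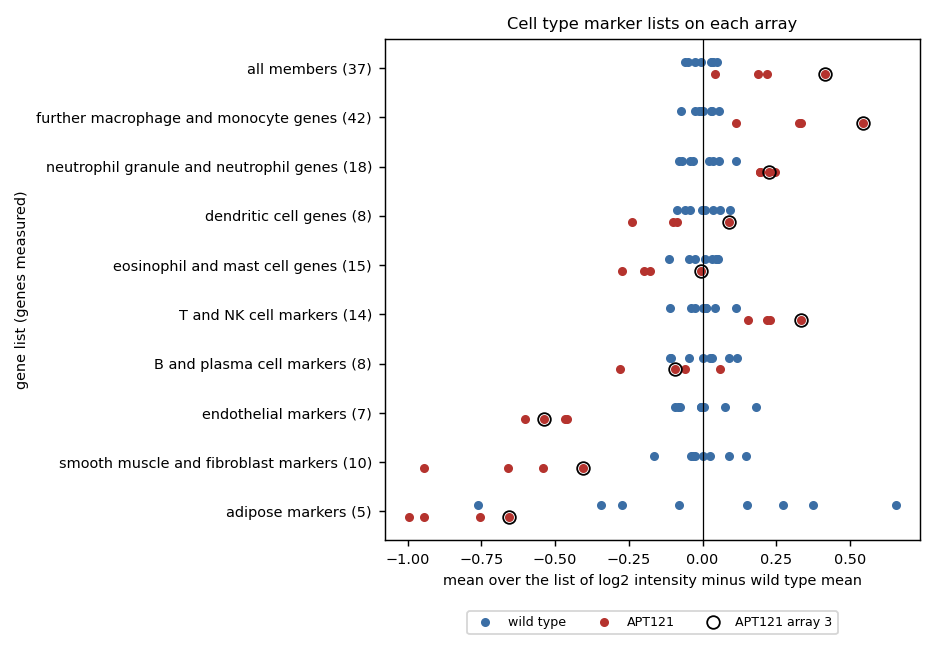
Mean over each marker list of log2 intensity minus the wild type mean, for each wild type and APT121 array, with array 3 circled. All 4 APT121 arrays lie to the right of all wild type arrays for the further macrophage, neutrophil and T and NK cell lists and to the left for endothelial and for smooth muscle and fibroblast markers, while the members as a whole range from near wild type (array 4) to the far right (array 3).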

How the data were processed

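RNA from 12 pools of anterior prostate was read on Mouse Gene 1.0 ST arrays. The deposited values are linear intensities per transcript cluster, made by the authors with RMA per the submitters' processing notes. Its version is not given in the sources used here. The method subtracts background and forces arrays to a common distribution, so a broad shift of all genes would be removed. Array medians ran from 32.1 to 33.7, and precision is limited by how many arrays there are. Of 28815 clusters, 21780 have 1 gene symbol in the platform annotation, 1605 several and 5430 none, and only the first were used. The cluster with the highest mean stood for each of the 998 genes with several, none of them a member. The log2 of the intensities was fitted for APT121 minus wild type with limma 3.58.1 in R 4.3.3 over all 12 arrays, and p-values were adjusted over 19935 genes (threshold 0.05). On simulated data for this comparison with 19935 genes, 67, 67 and 66 genes were given differences of 0.5, 1 and 2. Of these, 79.1%, 98.5% and 98.5% were recovered, and 7.07% of 198 calls were false. In the data 10527 genes were called, so these shares need not hold there. Exact permutation tests over 495 groupings cannot give a p below 0.00202.

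Alternatives were other scalings, filters on low genes, limma's trend and array weights, a fold minimum, a SAM-type statistic, the mean of clusters, the replicate number as a block, either set of wild type arrays alone and each array left out. Same-numbered APT121 and wild type pools did not deviate together (correlations -0.03 to 0.07), so the numbers were not treated as pairs. The members and lists were chosen with earlier results of these data known. Values are given array by array for the member of each role group with the largest called difference, every member called lower, a few fixed members and those with an outlying array or an unstable call. Each other list is described by its counts and up to 3 called genes of largest difference, and further genes of those lists were named after their values were seen. Of the 211 genes on the other lists, 191 were measured.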

Additional observations from a re-analysis of the deposited data

Results flagged for a closer look

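In 7 of the 74 groups of values tested (37 members in each of the 2 genotypes), 1 array lay apart from the others by Dixon's criterion, which chance alone meets in about 1 in 20 groups. Of these arrays, 4 are low. Wild type array 6 had 6.39 for Csf2ra, against 6.61 to 6.72 on the others, and APT121 array 2 had 3.44 for Csf3r, against 3.67 on the others. Wild type array 3 had 5.01 for Fcer1g (others 5.85 to 6.32), and wild type array 8 had 4.78 for Ptprc (others 5.10 to 5.34). The other 3 are high. APT121 array 3 had 4.51 for Clec7a (others 4.08 to 4.12), wild type array 5 had 2.94 for Clec4n (others 2.68 to 2.75) and wild type array 3 had 7.56 for Axl (others 7.17 to 7.31). The calls of Csf2ra, Fcer1g, Ptprc, Clec4n and Axl remained without that array, and neither Csf3r nor Clec7a was called without it.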

How the results depend on the processing

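Members called higher numbered 11 with arrays centred on their medians, 11 without the 50% of genes with the lowest mean (which leaves 18 members), 9 with a 1.5-fold minimum and 11 without wild type arrays 5, 6 and 7. Members called lower numbered 3 without those 50% of genes, 1 with the 1.5-fold minimum and 10 by the SAM-type statistic. In the order given, all genes called higher numbered 4103, 3770, 2288 and 4230, against 4540 in the main fit. All genes called lower numbered 3326, 1264 and 8513, against 5987 in the main fit. For all genes called, the fold minimum left 3552 of 10527. Leaving out 1 array gave 11 to 16 members higher, 5 to 6 lower and 8979 to 10493 genes called, the fewest members higher without APT121 array 3. With the replicate block, 12 members were higher, 4 lower and 8814 genes were called, and only 1 of 4 APT121 arrays correlated best with its own number. Clec7a turned to -0.050 without APT121 array 3 (-0.050 to 0.094 with 1 array left out). Mrc1 turned to -0.038 after a second quantile normalisation and to -0.11 against wild type arrays 5 to 8 alone. Lyz1 turned to 0.25 with the block and against wild type arrays 1 to 4 alone, to 0.04 and 0.06 without wild type arrays 7 or 8, to 0.11 and 0.10 without APT121 arrays 1 or 4, and to 0.071 without wild type arrays 5, 6 and 7 (-0.27 to 0.11 with 1 array left out). None of these 3 genes passed the threshold, and the cause was not tested. Over 937 values of members under alternatives, 802 kept direction and side of the threshold, 108 lost a call, 17 gained one and 10 turned sign. For members within the intensity range of olfactory receptor genes, a signal above background was not shown.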
